A study of Mus musculus with 6 samples.

Results

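The Gasdermin C family was examined as 5 of the 14338 genes compared in the data: the tandem genes Gsdmc, Gsdmc2, Gsdmc3 and Gsdmc4, and Gsdmd, a gasdermin of another subfamily further along the same chromosome. The rows were matched by Ensembl ID (Gsdmc ENSMUSG00000079025, Gsdmc2 ENSMUSG00000056293, Gsdmc3 ENSMUSG00000055827, Gsdmc4 ENSMUSG00000055748, Gsdmd ENSMUSG00000022575). The genes were chosen by measured values, because Gsdmc2 and Gsdmc3 were among the leading genes by level of some groups of urothelial cells in these data. Their levels over urothelial layers, sub-clusters and cell types are therefore given as a description, with no test. The rule for the choice did not use the change after injury, which was tested, but the choice was made with earlier results of these data known.

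Gasdermins are cytosolic proteins held inactive by contact between their own ends. When a protease cuts the linker, the freed front part assembles into pores in the plasma membrane, through which small cargo leaves the cell and which can end in lytic death, called pyroptosis. Gsdmd is cut by the inflammatory caspases downstream of inflammasomes, and caspase-8 has been described as able to cut the Gasdermin C protein. In the mouse intestine the Gsdmc genes are known as genes of the epithelium that respond to the type 2 cytokines interleukin-4 and interleukin-13. The urothelium, in which they are described here, is the stratified lining of the bladder, with basal cells on the basement membrane, intermediate cells above them, and superficial umbrella cells, rich in uroplakins, facing the urine.

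The data came from 6 droplet libraries of the mucosa peeled from bladders of wild-type C57BL/6 mice aged 8 weeks, 2 libraries per condition. Healthy mice received no injury. Acutely injured mice received 150 mg/kg of cyclophosphamide (CPP), a drug whose metabolites in the urine damage the urothelium, and were sampled after 48 hours. Chronically injured mice received 75 mg/kg in each of 4 rounds and were sampled 48 hours after the last. The sample time given for them is 11 days. Each condition pooled mice of both sexes, 4 to 6 in number, so single animals cannot be told apart. The p-values rest on the spread between libraries, which the tests estimate over all conditions and moderate with that of the other genes. The study's methods state that the libraries were run in batches. The labels used here name no batch, so no value within a batch is given, and batch and condition cannot be told apart.

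Unique molecular identifiers (UMIs) count captured RNA molecules. The libraries held 54604109 to 111985678 UMIs in all. After filtering and removal of doublets, 49892 cells were kept, of which 35322 were urothelial and outside a mixed sub-cluster. The 4 Y-linked genes compared were measured in every library (154 to 245 CPM summed over urothelial cells). Xist, the check for females, was listed for 5 of the 6 libraries and so not compared. The Y-linked values do not show whether females were present. Of the barcodes that passed the filter, 1637 occurred in more than 1 library. Healthy replicates 1 and 2 stood apart from each other for the genes described here, as given below.

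Urothelial cells were placed by scores of layer genes, without use of the gasdermins. Basal-like cells were non-cycling cells whose basal score exceeded their luminal score. They held Krt5, the basal keratin, at 1268 ± 199 CPM (UMIs scaled to counts-per-million; SD, n = 6 libraries) and Trp63 at 398 ± 54.8 CPM. Sub-cluster 1 was set apart as the mostly non-cycling sub-cluster with a high mean level of the superficial markers Krt20, Upk1a, Upk2, Upk3a and Grhl3. It is taken without its cycling cells unless stated (3391 cells). It held Upk3a, a uroplakin of the apical plaque, at 6800 ± 929 CPM against 500 ± 252 in basal-like cells, and Krt20 at 201 ± 46.8 CPM. Krt5, Trp63, Upk3a and Krt20 were in the lists that defined the classes. These values, and the sums of those lists below, are therefore no independent check. Sub-cluster 1 is called by its number because its 10 leading genes held none of the superficial markers listed and 1 mural marker, Rgs5, at 341 ± 78.6 CPM. They did hold Acer2 and Clu, which the study names as traits of superficial cells. The remaining non-cycling cells were intermediate-like. Of these and the basal-like cells, 1439 of 27959 (5.15%) lay within 0.1 of the score limit, so the classes are ranges rather than types. Over single basal-like cells the median sum was 6116 CPM for basal, 7776 CPM for luminal and 1313 CPM for superficial markers, against 545, 32709 and 14522 CPM in sub-cluster 1, and 0 for fibroblast, myofibroblast and macrophage markers in both.

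The tandem genes lie on the minus strand of chromosome 15 within 136.33 kb (GRCm38, the build of the study): Gsdmc at chr15:63775968-63808759, Gsdmc2 at chr15:63824346-63845177, Gsdmc3 at chr15:63857724-63878558 and Gsdmc4 at chr15:63891264-63912297. The pseudogenes 1700065I16Rik, Gsdmcl1 and Gsdmcl2 lie between them. Gsdmd lies 11.95 Mb away at chr15:75862327-75867408 on the plus strand. The coding sequences of Gsdmc2 and Gsdmc3 were identical at 97.1% of 1440 aligned bases, and Gsdmc4 was identical to either at 93.8%. Gsdmc matched the other tandem genes at 87.0% to 87.5%, and Gsdmd matched the 4 at 58.3% to 60.2%. A stretch of 60 coding bases in which the 4 tandem genes differ most shows how close the pair is, with capitals at the 23 positions where any of them differ, read on the coding strand from coding base 228 in Gsdmc and 225 in the others:
Gsdmc: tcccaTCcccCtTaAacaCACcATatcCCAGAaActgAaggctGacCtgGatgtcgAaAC
Gsdmc2: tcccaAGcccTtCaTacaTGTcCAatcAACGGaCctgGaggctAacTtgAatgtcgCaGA
Gsdmc3: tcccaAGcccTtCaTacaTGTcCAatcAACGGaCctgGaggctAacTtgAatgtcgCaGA
Gsdmc4: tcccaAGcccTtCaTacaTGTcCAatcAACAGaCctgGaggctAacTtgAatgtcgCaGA
The stretch lies at chr15:63803678-63803737 in Gsdmc, chr15:63835032-63835091 in Gsdmc2, chr15:63868385-63868444 in Gsdmc3 and chr15:63902018-63902077 in Gsdmc4. Gsdmc differed from Gsdmc2 at 22 of these bases and Gsdmc4 at 1, and Gsdmc2 and Gsdmc3 differed at 0. A second stretch is shown because it is the one in which Gsdmc2 and Gsdmc3 differ most, with capitals at the 15 positions where any of the 3 genes shown differ:
Gsdmc2: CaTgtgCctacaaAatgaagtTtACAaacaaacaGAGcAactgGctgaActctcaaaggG
Gsdmc3: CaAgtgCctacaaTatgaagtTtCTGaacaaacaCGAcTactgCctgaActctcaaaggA
Gsdmc4: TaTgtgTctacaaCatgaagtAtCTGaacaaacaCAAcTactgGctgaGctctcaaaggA
It lies at chr15:63826868-63826927 in Gsdmc2, chr15:63860298-63860357 in Gsdmc3 and chr15:63893815-63893874 in Gsdmc4, from coding bases 819, 819 and 825. Gsdmc3 differed from Gsdmc2 at 11 of the 60 bases and Gsdmc4 at 12.

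How far reads can be told apart bears on every value below. In the last 500 bases of the transcript, where the 3' libraries read, 14.9% of the 98-base windows of Gsdmc2 and 15.1% of those of Gsdmc3 also occurred in another of the 5 genes. The share was 6.70% for Gsdmc and 0 for Gsdmc4 and Gsdmd. Levels of Gsdmc2 and Gsdmc3 relative to each other are therefore uncertain to the extent that the counting discarded shared reads.

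Gsdmc2 and Gsdmc3 made up nearly all family UMIs of the urothelium. Gsdmc2 took 78.7 ± 3.22% and Gsdmc3 20.9 ± 3.13% (SD, n = 6 libraries) of the UMIs of the 4 tandem genes, and Gsdmc4 and Gsdmc took 0.363% and 0.109%. The transcripts are of similar length (2162 and 2179 bases), and a UMI counts a molecule once. The ratio of Gsdmc2 to Gsdmc3 UMIs was 3.85 ± 0.650 and ranged from 2.75 to 4.55 between libraries. By class it was 3.41 ± 0.559 in basal-like cells, 3.87 ± 0.677 in intermediate-like cells and 4.82 ± 0.958 in sub-cluster 1. These ranges overlapped between libraries. Within every library, however, the ratio was lowest in basal-like cells, higher in intermediate-like cells and highest in sub-cluster 1. This order was not tested.

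Among basal-like cells, intermediate-like cells and sub-cluster 1, the CPM of Gsdmc2 was highest in the first and lowest in the last. In basal-like cells it stood at 1026 and 1128 CPM in the healthy libraries, 834 and 458 in the acute and 869 and 774 in the chronic ones. In intermediate-like cells it stood at 177 and 533, 423 and 272, and 512 and 550 CPM in the same order. In sub-cluster 1 it stood at 50.1 and 167, 227 and 243, and 254 and 337 CPM. The basal-like level was the highest of the 3 in every library, and the healthy libraries had both the highest basal-like values and the lowest values in sub-cluster 1. The order depends on how the layers are drawn. When each sub-cluster took the layer of most of its cells, the basal class held only 191 non-cycling cells of sub-cluster 12, and its Gsdmc2 level of 197 CPM (n = 4 libraries) lay below that of intermediate-like cells (449.5 ± 147 CPM, n = 6) and differed from that of sub-cluster 1 (213 ± 96.7 CPM, n = 6) by less than the spread.

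Gsdmc3 had the same order. In basal-like cells it stood at 286 and 434 CPM in the healthy, 296 and 123 in the acute and 220 and 205 in the chronic libraries. In sub-cluster 1 it stood at 8.68 and 52.4, 52.6 and 50.6, and 47.1 and 61.5 CPM. Healthy replicate 1 was the low library for both genes in intermediate-like cells and in sub-cluster 1, with an intermediate-like Gsdmc3 level of 39.4 CPM against 190 in healthy replicate 2.

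**Figure D1:**
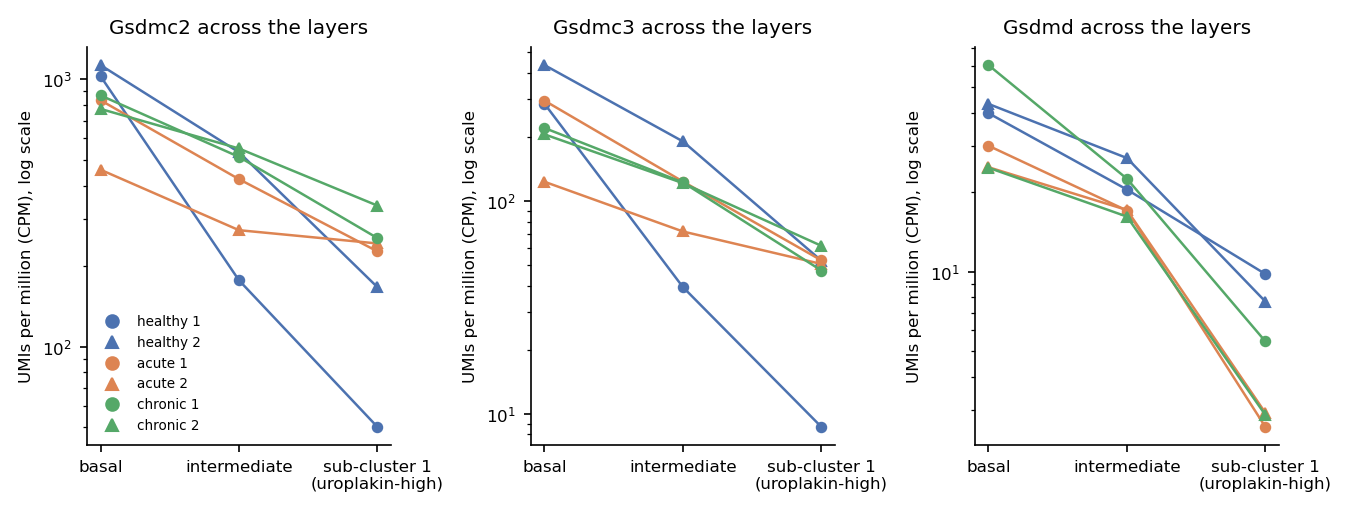
Level of Gsdmc2, Gsdmc3 and Gsdmd (CPM, log axis) in basal-like cells, intermediate-like cells and the uroplakin-high sub-cluster 1; each line is 1 library, coloured by condition. All lines fall from left to right; for Gsdmc2 the healthy lines, from 1026 to 50.1 and from 1128 to 167, fall more steeply than the injured lines of that gene, and for Gsdmd they fall less steeply.

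Gsdmd, the gasdermin of the canonical inflammasome, was also lower in sub-cluster 1 than in basal-like cells but had its highest levels outside the urothelium. In basal-like cells it stood at 39.8 and 43.1 CPM in the healthy, 29.96 and 24.8 in the acute and 60.5 and 24.7 in the chronic libraries. In sub-cluster 1 it stood at 9.79 and 7.70, 2.58 and 2.92, and 5.44 and 2.87 CPM. Chronic replicate 1 held only 62 basal-like cells. Gsdmd gave 375 UMIs in basal-like cells and 144 in sub-cluster 1 over all libraries. Its means were 56.6 ± 14.8 CPM in fibroblast-like, 55.3 ± 15.9 in myofibroblast-like and 50.7 ± 12.7 in macrophage-like cells (SD, n = 6), values that did not differ beyond their spread.

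The order basal-like over intermediate-like over sub-cluster 1 held for Gsdmc2, Gsdmc3 and Gsdmd in 6 of 6 libraries. It also held for 1204 of the 8105 genes with a mean of at least 10 CPM (14.9%). Basal-like cells had a lower depth than sub-cluster 1, with medians of 2736 to 4463 against 6606 to 10601 UMIs per cell. The levels are scaled to the UMIs of each class (CPM). The order is thus one of shares of UMIs, and UMIs of a gene per cell were not compared. The level in cycling urothelial cells, 484 ± 225 CPM for Gsdmc2 and 143 ± 107 for Gsdmc3, did not differ beyond its spread from that of intermediate-like cells. The level of Gsdmc2 in sub-cluster 1 exceeded that in macrophage-like cells in 6 of 6 libraries, but the means (213 ± 96.7 and 122 ± 76.2 CPM) differed by less than the larger SD. Other classes outside the urothelium did not lie below it: NK/T-like (225 ± 159 CPM, n = 3 libraries), mural-like (220 ± 283, n = 2) and endothelial-like cells (218 ± 251, n = 5).

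**Figure D2:**
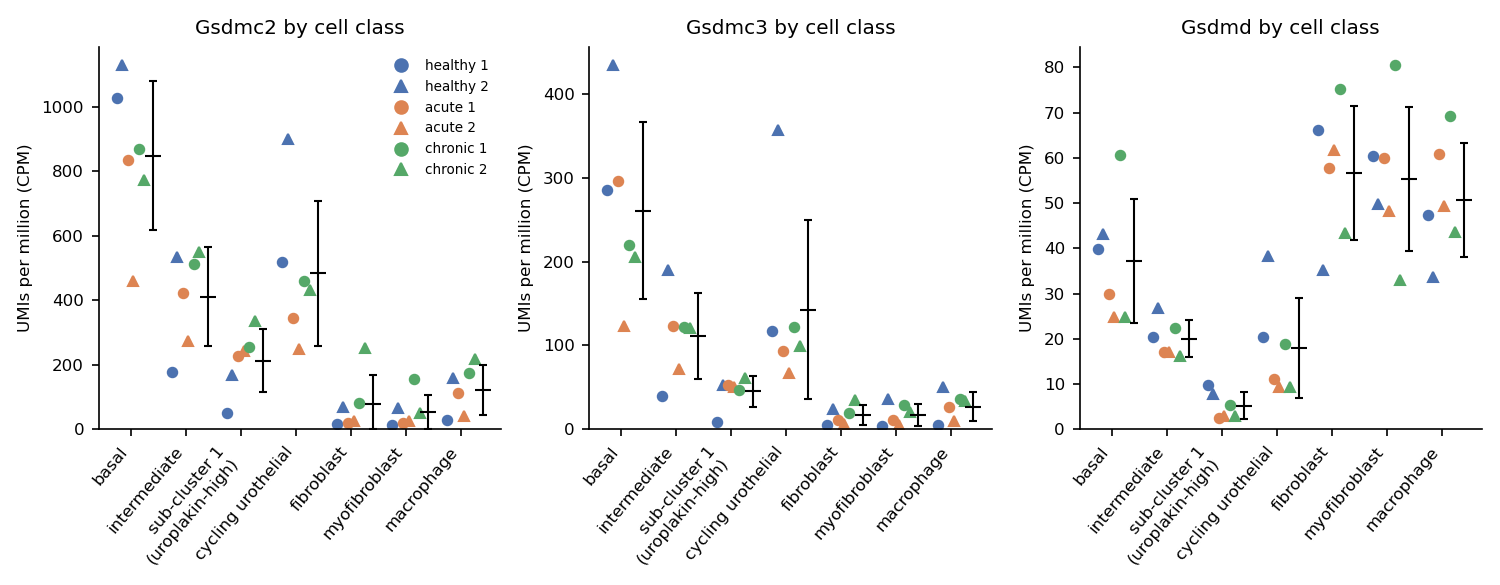
Level of Gsdmc2, Gsdmc3 and Gsdmd (CPM, linear axis) by cell class, each point 1 library, with the mean and SD (drawn no lower than 0) at the right of each class. Gsdmc2 and Gsdmc3 are highest in basal-like cells (848 and 261 CPM on average), and Gsdmd averages 56.6 CPM in fibroblast-like cells against 37.2 CPM in basal-like cells.

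Gsdmc4 and Gsdmc were rare. Gsdmc4 gave 392 UMIs and Gsdmc 101 UMIs of 194815205 urothelial UMIs, or 2.01 and 0.518 CPM. Gsdmc4 was at 4.60 CPM in basal-like cells (95% Poisson interval of the summed counts 3.42 to 6.04) and at 0.797 CPM in sub-cluster 1 (0.510 to 1.19), and the intervals, like all others here, cover counting error only. Gsdmc gave 1 UMI in fibroblast-like cells and none in the other non-urothelial classes, where 3 UMIs, the floor used here, would correspond to 0.188 CPM in myofibroblast-like and 1.08 CPM in macrophage-like cells.

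Outside the urothelium the gasdermins are set beside abundant urothelial RNA. For this, 12 abundant urothelial genes (Upk1a, Upk1b, Upk2, Upk3a, Krt5, Krt15, Krt18, Krt19, Fxyd3, Ly6d, Psca and Wfdc2) were measured in the same non-urothelial classes, where free RNA would carry them. Over 28 pairs of class and library, the median level outside the urothelium was 19.6% of the urothelial level for Gsdmc2 and 17.4% for Gsdmc3, against 19.7% for the 12 genes. Gsdmc2 lay within the range of the 12 genes in 22 of 28 pairs, above it in 4 and below it in 2. Gsdmc3 lay within it in 15, above it in 6 and below it in 7. Gsdmd lay above that range in 27 of 28 pairs, with a median of 314%. The part of free RNA in the Gsdmc2 and Gsdmc3 values of stromal and immune cells was not tested, and no expression is read from them.

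**Figure D3:**
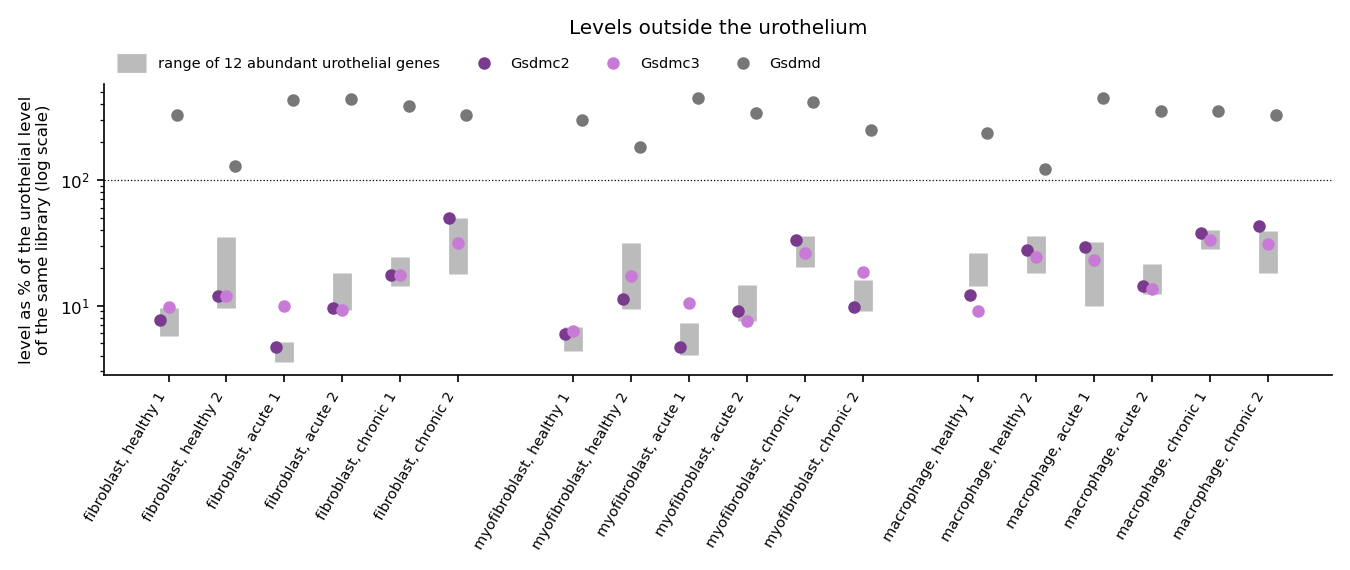
Level in fibroblast-like, myofibroblast-like and macrophage-like cells as a percentage of the urothelial level of the same library (log axis), a column per class and library; grey bars span the 12 abundant urothelial genes and points are the gasdermins. Gsdmc2 and Gsdmc3 points lie on, above or below the grey bars, and every Gsdmd point lies above 100%.

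Shares of cells with a UMI gave the same order at equal depth. After thinning each cell to 3000 UMIs, Gsdmc2 was seen in 83.8% and 91.6% of basal-like cells in the healthy, 73.9% and 63.0% in the acute and 78.3% and 76.4% in the chronic libraries, where the first chronic value rests on 23 cells. In sub-cluster 1 the shares were 11.0% and 34.7%, 35.0% and 41.8%, and 48.1% and 53.6%. In macrophage-like cells, given as a class outside the urothelium, they were 8.00% and 35.7%, 12.2% and 8.89%, and 33.3% and 35.7%. The share in sub-cluster 1 of healthy replicate 2 was thus not above the macrophage-like share of that library. Without thinning, the shares in sub-cluster 1 were 31.8% and 55.8%, 58.2% and 59.7%, and 68.0% and 78.8%. Over all libraries, also without thinning, 2331 of 2779 basal-like cells and 2063 of 3391 cells of sub-cluster 1 had a Gsdmc2 UMI.

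Gsdmc2 and Gsdmc3 were seen together in single cells. At 3000 UMIs per cell, both were seen in 9.85% of urothelial cells of healthy replicate 1, against 4.37% for independent detection at the same shares, and in 31.8% against 25.8% in healthy replicate 2. In the acute libraries the values were 18.8% against 12.7% and 11.7% against 8.77%, and in the chronic ones 16.3% against 13.2% and 19.0% against 15.9%. Joint detection exceeded the product in 6 of 6 libraries, across cells of layers that differ in both genes.

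Among the 15 urothelial sub-clusters, which were found with the gasdermins held out and here include the mixed sub-cluster 5 (394 ± 140.3 CPM of Gsdmc2), Gsdmc2 was highest in sub-clusters 7, 14 and 2, at 889 ± 223, 860 ± 509 and 833 ± 194 CPM (SD, n = 6 libraries). Sub-clusters 7 and 2 were rich in basal-like cells, with 44.7% and 35.5% of cells whose basal score led. Sub-cluster 14 was not, with 1.81%, and it was small, with 553 cells, 360 of them from chronic replicate 1. There Gsdmc2 ranged from 247 to 1410 CPM, and Gsdmc3, at 335 ± 198 CPM, was higher than in any other sub-cluster by the mean. These 3 did not differ beyond their spread. Sub-cluster 12, with 54.3% of cells whose basal score led and 84.5% cycling, stood at 378 ± 202 CPM for Gsdmc2. The lowest means were in sub-cluster 1, here with its cycling cells (3774 cells in all), at 220 ± 99.9 CPM for Gsdmc2 and 46.3 ± 18.7 for Gsdmc3. Others did not differ from it beyond their spread, such as sub-cluster 11 (229 ± 106 and 56.8 ± 22.0 CPM) and sub-cluster 0 (247 ± 156 and 52.0 ± 29.7 CPM). Gsdmd was highest in sub-cluster 7 too, at 36.2 ± 10.1 CPM, but sub-cluster 14 was the fourth, at 27.1 ± 14.3 CPM.

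**Figure D4:**
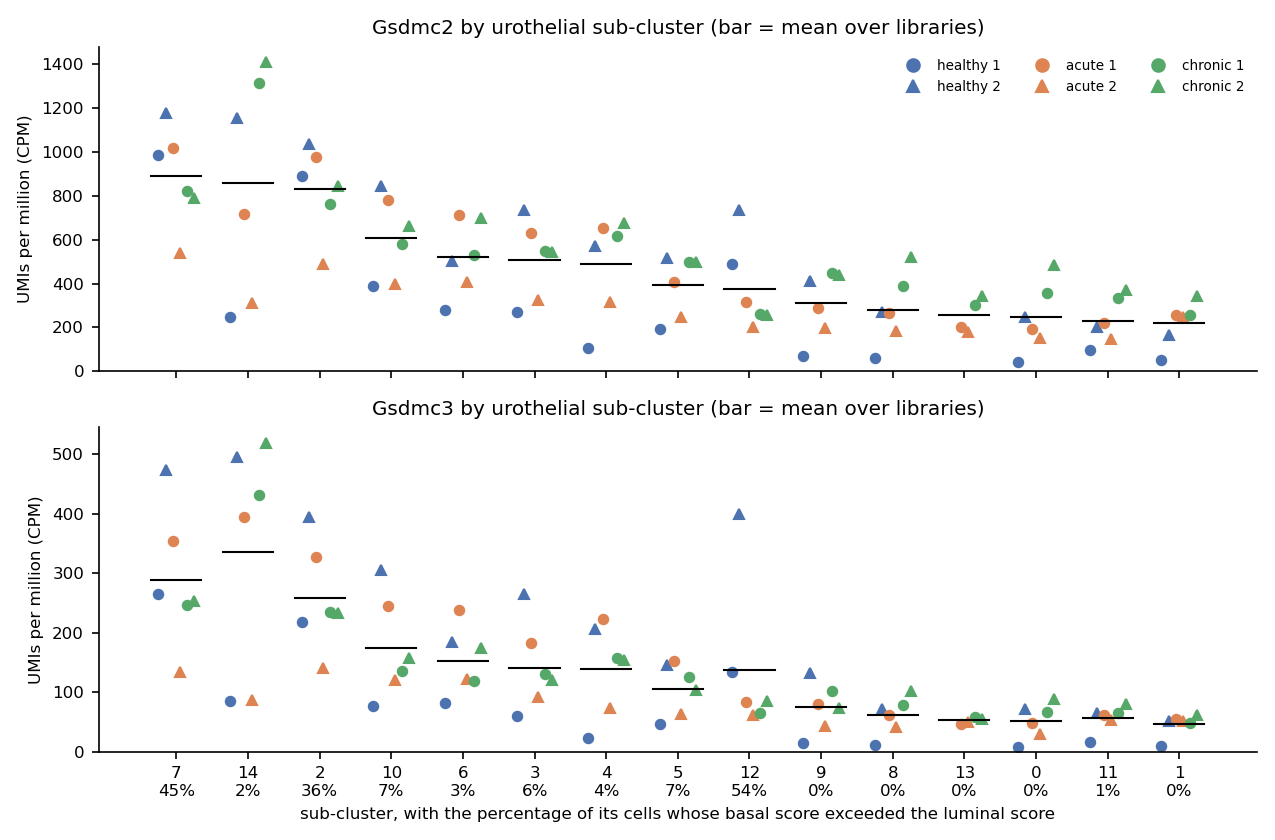
Level of Gsdmc2 and Gsdmc3 (CPM, linear axis) in each urothelial sub-cluster with at least 20 cells in a library, ordered by the mean of Gsdmc2; points are libraries and the black bar is their mean. Sub-clusters 7 and 2 combine high levels with many basal-like cells, and sub-cluster 14 is high with few, with a spread from 247 to 1410 CPM for Gsdmc2.

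The pattern most like that of Gsdmc2 was that of Gsdmc3. Over 88 points (15 sub-clusters, the mixed one included, in up to 6 libraries, centred within library) Pearson's r was 0.975 between them, and the median r with Gsdmc2 over 3245 genes was 0.0356. The next 4 genes for Gsdmc2 were Fam213a (0.843), Atp1b1, a subunit of the sodium pump (0.816), Id1, an inhibitor of helix-loop-helix transcription factors (0.776) and Ahnak (0.775). For Gsdmc3 they were Fam213a (0.866), Atp1b1 (0.840), Id1 (0.829) and Gpnmb (0.815). The points share libraries, depth and the basal to luminal axis, so the values are given without a test.

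Within a class, no pair of gene and class that was tested passed the edgeR threshold after injury. Gsdmc had too few UMIs to be tested in 6 of the 8 classes and Gsdmc4 in 4 of them. Over the 8 classes (all urothelial cells, the 4 urothelial classes, and fibroblast-like, myofibroblast-like and macrophage-like cells), the quasi-likelihood test of edgeR, with p-values adjusted by Benjamini-Hochberg over every gene tested, called 0 of 30 pairs of gene and class for acute minus healthy, where 7 had an unadjusted p under 0.05 and DESeq2 called 2. It called 0 of 30 for chronic minus healthy (5 unadjusted, 0 by DESeq2) and 0 of 30 for acute minus chronic (2 unadjusted, 0 by DESeq2). The unadjusted counts have no share over all genes beside them, so nothing is read from them. Calls were rare over all genes too, with 0.00726% called for acute minus healthy in all urothelial cells, 0.073% in cycling urothelial, 0.098% in fibroblast-like and 0.0127% in myofibroblast-like cells. For chronic minus healthy the shares were 0.0456% in cycling urothelial, 0.0623% in fibroblast-like and 0.0168% in macrophage-like cells. In basal-like cells, intermediate-like cells and sub-cluster 1 edgeR called 0 genes.

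In sub-cluster 1 the values of Gsdmc2 in the 4 injured libraries (227, 243, 254 and 337 CPM) lay above both healthy values (50.1 and 167 CPM). The edgeR log2 fold change was 1.13 ± 0.48 (SE) after acute injury (adjusted p = 0.815) and 1.43 ± 0.48 after chronic injury (adjusted p = 0.622). Such a gap upwards was shown by 15.5% and 18.6% of the genes tested in the 2 comparisons. Without healthy replicate 1 the acute value was 0.48 and without healthy replicate 2 it was 2.29, and the corresponding chronic values were 0.78 and 2.59.

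Gsdmd went the other way in sub-cluster 1, with healthy values of 9.79 and 7.70 CPM above the acute (2.58 and 2.92 CPM) and chronic ones (5.44 and 2.87 CPM). The log2 fold change was -1.64 ± 0.45 (SE) after acute (edgeR adjusted p = 0.609) and -1.08 ± 0.43 after chronic injury (adjusted p = 0.676). A gap downwards was shown by 17.4% of the genes tested in either comparison. In basal-like cells the acute Gsdmd values (29.96 and 24.8 CPM) also lay below the healthy ones (39.8 and 43.1 CPM), with a log2 fold change of -0.57 ± 0.36 (edgeR adjusted p = 1.00), and the chronic ones overlapped them.

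In basal-like cells Gsdmc2 was lower in both acute (834 and 458 CPM) and both chronic libraries (869 and 774 CPM) than in the healthy ones (1026 and 1128 CPM). The log2 fold changes were -0.73 ± 0.30 and -0.41 ± 0.30 (SE; edgeR adjusted p = 1.00 for both). Such a gap downwards was shown by 15.2% and 15.7% of the genes tested. Gsdmc3 was at -0.79 in both comparisons, with SEs of 0.38 and 0.40, and its acute values overlapped the healthy ones, whereas its chronic values (220 and 205 CPM) lay below both (286 and 434 CPM).

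Cells called cycling lay in different sub-clusters by condition. Sub-clusters 12 and 13, the mostly cycling ones, held 39.4% and 9.33% of them in the healthy, 69.0% and 53.6% in the acute and 28.4% and 49.3% in the chronic libraries, and the rest lay in mostly non-cycling sub-clusters. Within sub-cluster 12 Gsdmc2 stood at 489 and 738 CPM in the healthy libraries, the latter from 26 cells, and at 316 and 204 CPM in the acute ones. Among all cycling urothelial cells Gsdmc2 stood at 519 and 899 CPM in the healthy, 344 and 247 in the acute and 459 and 433 in the chronic libraries. The acute log2 fold change was -1.28 ± 0.30 (SE; edgeR adjusted p = 0.154), and DESeq2 called it (adjusted p = 0.0114), where it called 1.74% of genes. Gsdmc3, from 118 and 357 to 93.3 and 67.5 CPM, was at -1.59 ± 0.46 (edgeR adjusted p = 0.206; DESeq2 adjusted p = 0.0438). Gsdmd, from 20.4 and 38.3 to 11.1 and 9.37 CPM, was at -1.53 ± 0.42 (edgeR adjusted p = 0.187) and was not called by DESeq2. Gsdmc2 stood at 821 and 1453 CPM in healthy and 482 and 316 CPM in acute cycling basal-like cells, and at 407 and 710 against 304 and 234 CPM in cycling luminal-like cells. These classes and sub-cluster 12 were not tested and have no share over all genes beside them, so nothing is read from their values. The part of the shift between sub-clusters in the acute difference was not tested. The groups did not overlap for any of the 3 genes over all cycling cells, and 21.8% of the genes tested showed such a gap downwards.

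**Figure D5:**
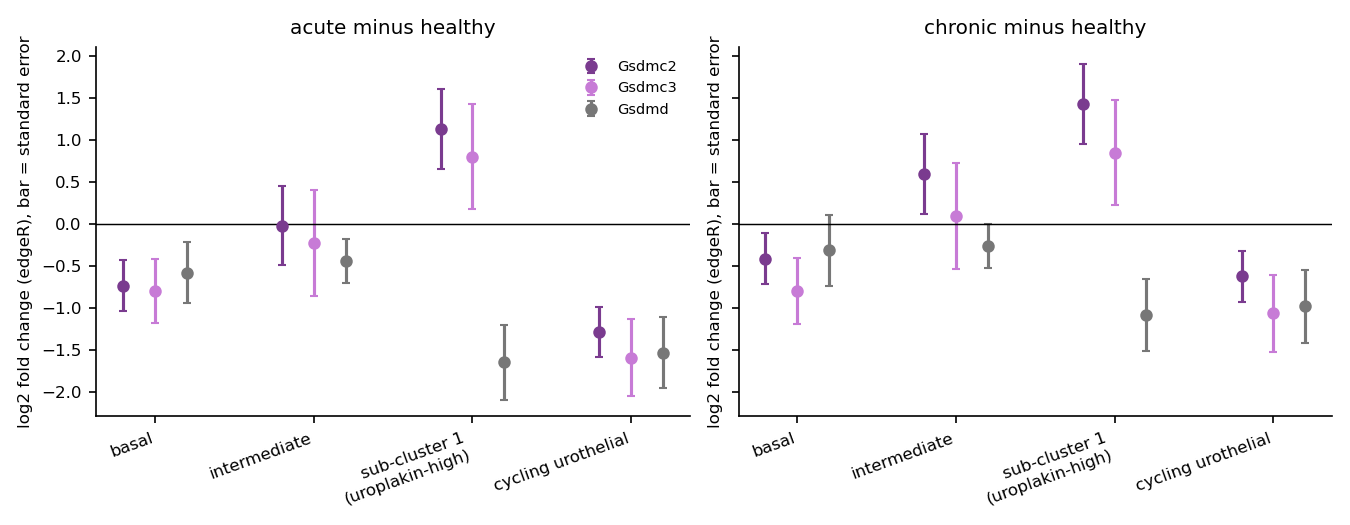
Log2 fold change of Gsdmc2, Gsdmc3 and Gsdmd after acute (left) and chronic injury (right) from edgeR in the urothelial classes, with bars for the standard error. Gsdmc2 and Gsdmc3 are below 0 in basal-like cells and above 0 in sub-cluster 1 after either injury, whereas Gsdmd is below 0 in each class shown; none of these values passed the threshold.

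The difference between the layers in the response to injury was tested directly, as an interaction of layer and condition in edgeR with the library as a block (6 residual degrees of freedom). The acute effect on Gsdmc2 was higher in sub-cluster 1 than in basal-like cells by 2.18 ± 0.35 on the log2 scale (SE; adjusted p = 0.00206), and the chronic effect by 2.19 ± 0.37 (adjusted p = 0.00614). For Gsdmc3 the acute difference was 2.00 ± 0.43 (adjusted p = 0.0223), and the chronic one, 2.05 ± 0.47, missed the threshold (adjusted p = 0.0507). For Gsdmd the differences were -1.13 ± 0.36 (adjusted p = 0.172) and -0.84 ± 0.39 (adjusted p = 0.498). Of 12211 genes, 1.04% were called for the acute effect (0.401% with a positive difference) and 0.377% for the chronic effect (0.123% with a positive difference).

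The values behind this are the folds between basal-like cells and sub-cluster 1 within a library. For Gsdmc2 the fold was 20.5 and 6.76 in the healthy, 3.67 and 1.89 in the acute and 3.42 and 2.30 in the chronic libraries. For Gsdmc3 it was 32.9 and 8.29, 5.62 and 2.43, and 4.67 and 3.34. For Gsdmd it was 4.06 and 5.599, 11.6 and 8.51, and 11.1 and 8.63. The Gsdmd folds rest on 375 UMIs in basal-like cells and 144 in sub-cluster 1 over all libraries, against 9460 and 6726 for Gsdmc2. For the Gsdmc pair the fold was lower in each of the 4 injured libraries than in either healthy one, as it was for 8.35% of the 7835 genes with UMIs in both classes of every library and a mean of at least 10 CPM. For Gsdmd it was higher, as for 8.09% of them, and the Gsdmd interaction was not called. On the log2 scale the Gsdmc2 folds had an SD of 1.13 in the healthy, 0.680 in the acute and 0.404 in the chronic libraries (n = 2 each). The SEs of the interaction test draw on the spread of the other genes as well.

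Leaving out a library leaves its condition with 1, which is then assumed to vary like the other groups. The acute call for Gsdmc2 was kept with each of the 6 libraries left out in turn (1.34 to 2.99, the lower value without healthy replicate 1) and by DESeq2 (2.23, adjusted p = 0.0180), which called 1.24% of genes for the acute and 0.581% for the chronic effect. The acute call for Gsdmc3 was lost without healthy replicate 1 (1.12, adjusted p = 0.144), acute replicate 2 (1.44, adjusted p = 0.112), chronic replicate 1 (2.01, adjusted p = 0.0794) or chronic replicate 2 (2.01, adjusted p = 0.0744), and by DESeq2 (2.21, adjusted p = 0.0804). The chronic call for Gsdmc2 was lost without chronic replicate 1 (2.46 ± 0.48, SE, adjusted p = 0.0599) or chronic replicate 2 (1.86 ± 0.51, adjusted p = 0.552), and DESeq2 kept it (2.17, adjusted p = 0.0496). Chronic replicate 1 held only 62 basal-like cells. The difference between sub-cluster 1 and intermediate-like cells was not called for any of the 3 genes, with 1.21 ± 0.35 for Gsdmc2 after acute injury (edgeR adjusted p = 0.115), where 0.688% of genes were called for the acute and 0.106% for the chronic effect.

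Other measures of the same libraries are given beside this difference. Basal markers (7 of 8 genes, summed) in sub-cluster 1 stood at 747 and 842 CPM in the healthy, 470 and 465 in the acute and 973 and 671 in the chronic libraries. Both acute values lay below the healthy ones, and of the chronic values 1 lay above and 1 below them. Gsdmc2 in fibroblast-like cells stood at 17.4 and 67.7, 18.1 and 26.3, and 81.7 and 252 CPM, where the last value rests on 29 cells. In macrophage-like cells it stood at 27.8 and 159.7, 113 and 39.8, and 175 and 217 CPM in the same order. Sub-cluster 1 lay above both classes in 6 of 6 libraries, by little over the macrophage-like cells in healthy replicate 2 (167 against 159.7 CPM). NK/T-like cells, however, had a healthy mean of 273 ± 191 CPM, against 108 ± 82.5 CPM in sub-cluster 1 (SD, n = 2 libraries). Myofibroblast markers (4 of 4 genes) in sub-cluster 1 were at 362 CPM in acute replicate 2 and at 14.8 to 70.1 CPM in the others. Macrophage markers (9 of 9 genes) stood there at 34.9 to 183 CPM. The parts of basal, free and stromal RNA in the result were not tested. In sums over a class, fewer expressing cells and less RNA per cell cannot be told apart.

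The other genes of the pathway showed where in the mucosa the parts of the machinery were measured. They are given as lists, with the genes of highest urothelial level, and 1 gene passed the edgeR test in any class. Casp1, Casp4, Gzma, Nlrp3, Il18, Il1b and Il4ra were added after their values were seen. Of the other gasdermins 2 of 5 were compared, and both, Gsdme and Gsdma, had their highest mean in sub-cluster 1, at 12.5 ± 4.88 and 10.9 ± 4.96 CPM, against 6.52 ± 3.98 and 0.917 ± 2.25 in basal-like cells. Between these classes both genes had the opposite order to the Gsdmc pair. Gsdme in cycling urothelial (10.4 ± 2.72 CPM), fibroblast-like (9.51 ± 3.65) and macrophage-like cells (9.33 ± 4.13) lay within the spread of sub-cluster 1.

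Of 11 proteases that cut gasdermins 8 were compared, and in the urothelium Casp6 (34.9 ± 8.22 CPM) and Casp8 (26.1 ± 4.13) had the highest levels. Casp8, the caspase described for Gasdermin C, was at 24.5 ± 6.08 CPM in basal-like cells and 27.6 ± 6.56 in sub-cluster 1, values within their spread. Its highest mean was in macrophage-like cells (54.6 ± 15.5), with endothelial-like cells (51.9 ± 17.3) within the spread. Casp4, the caspase that senses lipopolysaccharide, was at 24.6 ± 9.12 CPM in basal-like cells against 4.90 ± 2.66 in sub-cluster 1. Its highest mean was in endothelial-like cells (116 ± 60.3), with myofibroblast-like cells (85.5 ± 64.3) among those within the spread. Casp1, the canonical inflammasome caspase, was near 0 in the urothelium (0.143 ± 0.0924 CPM) and highest in macrophage-like cells (28.0 ± 9.41). Gzma, a granzyme, was highest in the NK/T-like cells (818 ± 454 CPM, n = 3 libraries).

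Of 18 inflammasome sensors and adaptors 12 were compared. Pycard, the adaptor that links sensors to Casp1, was at 311 ± 45.6 CPM in the urothelium and 330 ± 79.9 in macrophage-like cells. Dpp8 (45.2 ± 6.73) and Nek7 (37.8 ± 5.77) followed. Nlrp3, the sensor of membrane damage, was at 0.431 ± 0.381 CPM in the urothelium and 159 ± 95.8 in macrophage-like cells.

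All 6 genes of cargo and rupture were compared. Hmgb1, a nuclear protein released on lysis, had the highest urothelial level (459 ± 94.7 CPM). Il33, an alarmin, was at 277 ± 126 CPM in basal-like cells and 18.6 ± 8.37 in sub-cluster 1, and Ninj1, which ruptures the membrane late in lysis, at 181 ± 33.3 and 58.0 ± 5.59 CPM, the same order as Gsdmc2, although Ninj1 was highest in macrophage-like cells (732 ± 199.5 CPM). Il18 had the opposite order, at 5.99 ± 3.404 and 29.98 ± 12.7 CPM. Il1b was a macrophage-like gene (1120 ± 239 CPM against 2.80 ± 2.09 in the urothelium). Of 11 genes of membrane repair 11 were compared, led in the urothelium by Chmp4b (482 ± 67.5 CPM), a subunit of the ESCRT-III filament that seals pores, Anxa2 (311 ± 57.6) and Chmp2a (265 ± 67.1). Anxa2 was highest in fibroblast-like cells (1756 ± 448 CPM).

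Of 12 genes of the type 2 cytokine pathway 7 were compared. Jak1 (87.6 ± 14.6 CPM), Stat6 (44.5 ± 5.14), the transcription factor downstream of interleukin-4 and interleukin-13, and Il13ra1 (11.2 ± 1.85) had the highest urothelial levels, and Il4ra was at 5.94 ± 1.36 there and highest in myofibroblast-like cells (94.1 ± 63.1). The only gene of all lists that passed was Retnla, a target of this pathway in macrophages, which fell in macrophage-like cells from 355 and 942 CPM in the healthy libraries to 0 and 9.32 CPM in the chronic ones (0 and 3 UMIs; edgeR adjusted p = 0.0419). The acute values were 543 and 191 CPM. It was the only gene called in that comparison (0.0168% of 5944).

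The promoter sequence was held for 1 of the 5 genes, Gsdmc3, from RefSeq (GRCm38.p6, chr15:63878559-63878808, minus strand, 250 bases ending at the start site). It is shown because Gsdmc3 follows the basal to luminal axis and type 2 cytokines are known to act on the gene in the gut, with capitals for GATAA on either strand and for TATANA:
Gsdmc3: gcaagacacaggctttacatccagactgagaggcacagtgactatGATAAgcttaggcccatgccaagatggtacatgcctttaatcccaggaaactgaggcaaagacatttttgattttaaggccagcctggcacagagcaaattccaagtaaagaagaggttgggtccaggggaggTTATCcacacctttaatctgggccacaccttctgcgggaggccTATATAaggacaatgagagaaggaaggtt
GATAA, the core of the site of GATA factors, occurred 205 and 72 bases before the start, and the TATANA match 29 bases before it. On either strand GATAA was in 22.6% of 32851 promoters cut to the same length and TATANA in 22.6%. The STAT6 site, TTC and GAA with 4 bases between them (5.85% of promoters), and the AP-1 site TGANTCA (6.75%) were not in the letters of this window. A match is a description of letters and not a site.

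Neighbours were taken among the compared genes only. Of the 6 nearest the Gsdmc cluster, 3 on each side, 3 had the higher mean in basal-like cells than in sub-cluster 1. Of the 6 nearest Gsdmd all 6 had, where 57.7% of 14329 genes had. Fam49b, 16.8 kb to the right, was at 69.2 ± 5.24 CPM in basal-like cells and 41.0 ± 6.89 in sub-cluster 1, higher in the former in 6 of 6 libraries. Asap1, next on that side at 175 kb, was at 33.0 ± 14.98 and 20.9 ± 6.53 CPM. Adcy8, the third there at 785 kb, was at 0.335 ± 0.281 and 1.90 ± 1.09 CPM. To the left the genes lay further off, at 1398 kb (Pvt1), 1786 kb (Myc) and 2922 kb (Fam84b). Myc stood at 31.6 ± 10.7 and 21.7 ± 6.65 CPM and Pvt1 at 6.05 ± 3.51 and 21.3 ± 4.94 CPM. Fam84b stood at 14.5 ± 4.08 and 15.02 ± 5.28 CPM, though higher in basal-like cells in 4 of 6 libraries. Beside Gsdmd, Top1mt was at 23.1 ± 6.16 and 5.19 ± 0.401 CPM and higher in basal-like cells in 6 of 6 libraries, as was Eef1d (806 ± 139 and 653 ± 102 CPM). Zc3h3 was higher there in 5, Tigd5 in 4 and Zfp41 in 3 of 6 libraries. Naprt, 23.5 kb away, was at 31.7 ± 8.28 and 28.5 ± 5.80 CPM and higher in basal-like cells in 3 of 6 libraries.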

How the data were processed

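The mucosa of mouse bladder was profiled by 10x droplet RNA-seq of 3' ends in 6 libraries. The deposited tables hold UMI counts per gene and cell, which the authors made with Cell Ranger against mm10. The table of healthy replicate 1 ended within a line, which was left out. Whether rows are missing after it could not be told (it listed 15213 genes, the others between 15065 and 20180). The 14450 genes listed in every table were kept, 14338 of them neither mitochondrial nor ribosomal. The filter required more than 500 detected genes and less than 10% mitochondrial UMIs (55398 cells), and 4.28% to 11.1% of cells per library were called doublets and removed. A mesenchymal cluster of 1982 cells, 47.7% of them called doublets, was removed whole. With it, 5506 cells were removed in all. Libraries were integrated in Seurat 5.3.0 (sctransform 0.4.2) with the gasdermins and the lists held out, and clustered in scanpy 1.11.5. Urothelial sub-cluster 5 (2800 cells) and mesenchymal sub-cluster 10 (231 cells), whose leading genes mixed cell types, were left out by a rule set after the data were seen.

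Counts were summed per library and class and tested in edgeR 4.0.16 (quasi-likelihood, TMM, filterByExpr, Benjamini-Hochberg adjustment, threshold 0.05) over the 6 libraries. DESeq2 1.42.0 was an alternative. The layer by injury test took the library as a block. Levels are UMIs of a class scaled to counts-per-million (CPM), with at least 20 cells in a library. Intervals and floors (3 UMIs) cover counting error only. An exact permutation test of 2 against 2 libraries cannot go below p = 0.333, so shares of cells are described. The members and lists were chosen with earlier results of these data known. Named genes were the members, the genes called and the 3 with the highest urothelial level of each list, the 5 most alike in pattern, and the 3 nearest genes on each side. A gene that this rule names is not reported here. Tests were checked on simulated counts. Sequences were read from GRCm38 with Biopython 1.88, and the promoter from RefSeq.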

Additional observations from a re-analysis of the deposited data

Results flagged for a closer look

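Of the results tested, 3 differed between layers of the urothelium in their response to the same injury, by a test of the difference itself (edgeR, interaction of layer and condition). Between sub-cluster 1 and basal-like cells, that test called 1.04% of 12211 genes for the acute and 0.377% for the chronic effect. The acute effect on Gsdmc2 was higher in sub-cluster 1 than in basal-like cells by 2.18 on the log2 scale (adjusted p = 0.00206). The acute effect on Gsdmc3 differed by 2.00 (adjusted p = 0.0223), and the chronic effect on Gsdmc2 by 2.19 (adjusted p = 0.00614). The acute Gsdmc3 call was lost when any of 4 of the 6 libraries was left out and by DESeq2 (adjusted p = 0.0804), and the chronic Gsdmc2 call without chronic replicate 1 (adjusted p = 0.0599) or chronic replicate 2 (adjusted p = 0.552). Both comparisons share the 2 healthy libraries, which differ from each other in sub-cluster 1 (50.1 and 167 CPM of Gsdmc2).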

How the results depend on the processing

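Each healthy library moved the values of Gsdmc2 and Gsdmc3. When any 1 library was left out, the edgeR log2 fold change over all urothelial cells ranged from -0.81 to 0.54 for Gsdmc2 and from -1.21 to 0.75 for Gsdmc3 after acute injury, and from -0.24 to 1.14 and from -0.92 to 1.08 after chronic injury, with the sign turning without 1 of the healthy replicates. It ranged from -0.78 to 0.53 for chronic Gsdmd in basal-like cells (positive without chronic replicate 2), from -0.043 to 2.63 for acute Gsdmc3 in sub-cluster 1 (negative without healthy replicate 1) and from -1.66 to 0.024 for chronic Gsdmc3 in cycling cells (positive without healthy replicate 2). The pairs of gene and class called ranged from 0 to 1 for chronic minus healthy (1 without healthy replicate 2) and for acute minus chronic (1 without either healthy replicate). DESeq2 called 2 pairs for acute minus healthy, both in cycling urothelial cells, where it called 1.74% of 10961 genes. With no filter on low counts, 1 pair was called for acute minus chronic. Apart from DESeq2, these counts have no share over all genes beside them, so nothing is read from them.

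For the difference between sub-cluster 1 and basal-like cells, leaving out a library gave 1.12 to 3.16 for acute Gsdmc3, 1.36 to 3.01 for chronic Gsdmc2 and 1.17 to 3.21 for chronic Gsdmc3. Chronic Gsdmc3 passed the threshold without healthy replicate 2, acute replicate 1 or acute replicate 2, and with no filter on low counts (2.07). DESeq2, added after seeing the data, gave 2.21 for acute Gsdmc3, no longer past the threshold. The genes called numbered 43 to 271 for the acute and 0 to 170 for the chronic effect, and 71 by DESeq2 for the chronic effect. Over all urothelial cells DESeq2 called 285 genes for acute minus healthy against 1 by edgeR. The cause was not tested.

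With layers taken from the majority of a sub-cluster, the basal class kept 191 cells, all of sub-cluster 12, of which 84.5% of cells were cycling. It stood at 197 CPM for Gsdmc2, 45.1 for Gsdmc3 and 16.9 for Gsdmd, each a mean of 4 libraries and below that of intermediate-like cells over 6 libraries (449.5, 125 and 21.1 CPM). The Gsdmc2 and Gsdmc3 values lay within the spread of sub-cluster 1 (213 ± 96.7 and 45.5 ± 18.6 CPM). The difference in response between sub-cluster 1 and this basal class could not be fitted. That between sub-cluster 1 and intermediate-like cells could, with 99 of 12906 genes called for the acute and 29 for the chronic effect. In fibroblast-like cells Gsdmc2 rose to 185 CPM and Gsdmc3 to 51.1 CPM with doublets kept, and Gsdmc3 to 37.9 CPM without integration. Without thinning, the mean share of cells in sub-cluster 1 was 58.7% for Gsdmc2, 24.1% for Gsdmc3 and 4.47% for Gsdmd, against 37.4%, 11.5% and 1.52% at 3000 UMIs. With the replicate number as a block, 0 pairs were called in each of the 3 contrasts, also with the chronic numbers crossed. Replicate differences correlated at 0.0609 to 0.416 between healthy and acute libraries but at -0.301 to -0.0357 between healthy and chronic ones, so the numbers were not taken as pairs.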
